A study of Mus musculus with 6 samples.

Results

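Oxidative phosphorylation is the last stage of cellular respiration, in which complexes I to IV of the inner mitochondrial membrane pass electrons from NADH and succinate to oxygen, and complex V, the ATP synthase, uses the resulting proton gradient to make ATP. Its subunits come from both genomes of the cell: most are encoded in the nucleus, translated in the cytosol and imported, while the mitochondrial DNA encodes a small hydrophobic core of complexes I, III, IV and V, and none of complex II. Neurons depend heavily on this pathway, and their axons carry mitochondria far from the cell body. The genes described here carry the names of subunits of these 5 complexes and were taken by symbol from the count table (symbols beginning Nduf with a letter a, b, c, s or v and a number, Sdha to Sdhd, Uqcr, Cox4 to Cox8, Atp5, and the mt- symbols of Nd, Co, Atp and Cytb). They were 95 of the 20173 genes in the table, 82 nuclear and 13 mitochondrial. The nuclear genes divided into 36 of complex I, 4 of complex II, 8 of complex III, 17 of complex IV and 17 of complex V, with Ndufa4 and Ndufa4l2 counted in complex IV, where their proteins are placed. All are annotated as protein coding in GENCODE M21 except Ndufb1-ps, a bidirectional promoter lncRNA there, which its symbol placed in complex I.

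The counts came from RNA-Seq of primary sympathetic neuron cultures, with 3 control libraries (Slit2fl/fl) and 3 Slit2th libraries. Slit2th animals carry, on the same floxed Slit2 alleles, a Cre recombinase under the tyrosine hydroxylase promoter (Th-Cre), so that cells without this Cre in a Slit2th culture keep Slit2. All were male, 3 weeks old and on a C57BL/6J background, and the cells dissociated from their sympathetic chains grew for 4 to 5 days in neural medium with B27. The study also calls the material ganglions and its isolation protocol names dorsal root neurons, and no source used here says how many animals a library holds, so p-values measure only the spread between these libraries. Values below are given in the order of replicates 1, 2 and 3, in counts or in CPM (counts scaled to the library total, after adjustment by edgeR's TMM factor).

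Slit2, the targeted gene, had 139, 85 and 77 counts in Slit2fl/fl cultures and 17, 24 and 27 in Slit2th cultures, which is 47.7 ± 6.32 against 13.9 ± 2.12 CPM (SD, n = 3 each). The groups did not overlap, and the log2 fold change of -1.78 (SE 0.37) had an adjusted p of 0.423 in edgeR's quasi-likelihood test, with an exact two-sided permutation p of 0.10, the smallest that 3 libraries against 3 allow. Totals were 1255939 to 3155406 counts per library, so that 3 counts, taken as the floor of detection, were 0.951 to 2.39 CPM. Of 20 neuronal markers, 18 were in the table and 5 were high enough to test, and Th itself, the enzyme that defines these neurons, had 0 counts in every library. Summed neuronal markers stood at 592, 201 and 209 CPM in Slit2fl/fl cultures and 203, 217 and 202 CPM in Slit2th cultures, far below the summed glial markers (5934 to 11910 and 13556 to 20263 CPM) and fibroblast markers (2459 to 3448 and 3286 to 4896 CPM). The labels give the cell type as neuron, while glial and fibroblast markers exceeded neuronal ones in every library, and in such bulk RNA fewer cells of a type and less RNA per cell cannot be told apart.

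Of the 13 mitochondrial messages, 8 were abundant and 5 were close to absent, with fewer than 100 counts in every library. Per kilobase of exon, the 8 stood between 4109 (mt-Nd5) and 30545 CPM (mt-Nd1), while mt-Co2, mt-Co3, mt-Atp6, mt-Atp8 and mt-Nd4l stood between 5.92 and 65.0 CPM, a gap of 63.2 times. The 5 encode core subunits of complexes I, IV and V, and they are cut from the same long precursor as abundant neighbours such as mt-Co1. In the GENCODE M21 annotation, 4 of the 5 have a nuclear copy that matches them base for base over 294 bases (mt-Nd4l, with Gm10222), 678 bases (mt-Atp6, with Gm10925), 681 bases (mt-Co2, with Gm28661) or 783 bases (mt-Co3, with Gm28437), all on chromosome 1. No copy of mt-Atp8 met the criteria, but its annotated end runs into mt-Atp6. Exact copies were not limited to scarce messages. The abundant mt-Nd4, at 12096 CPM per kilobase, matches Gm28439 without a mismatch over 876 bases, with 63.6% of its transcript copied. The abundant mt-Co1, at 5835 CPM per kilobase, has a copy, Gm13340, of 97.6% identity over 1545 bases. The first 61 bases of the mt-Co2 message and of its nuclear copy are shown, because a read from one cannot be told from a read from the other. Beside them is mt-Nd3, an abundant message, with its copy Gm28438, which differs in 1 of 345 bases. The capitals mark that substitution, T3C, counted from the first base of the message with the mitochondrial base first.
mt-Co2: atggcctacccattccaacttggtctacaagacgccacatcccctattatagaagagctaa
Gm28661: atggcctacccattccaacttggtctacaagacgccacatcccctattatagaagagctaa
mt-Nd3: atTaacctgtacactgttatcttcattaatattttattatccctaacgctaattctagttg
Gm28438: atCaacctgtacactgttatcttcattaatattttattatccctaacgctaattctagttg
The copies themselves are not rows of the count table. How reads with more than 1 matching place were counted is not given in the sources used here, so levels of these genes are uncertain, and the part of the copies in the low counts was not tested.

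For the nuclear genes, whose transcription is textbook ground for the factor NRF1 (nuclear respiratory factor 1), the promoters show what many of them share outside their coding sequence. RefSeq promoters of GRCm38.p6 ran from 250 bases before to 50 after a start. They were matched by Ensembl identifier, or by symbol where that failed, for 65 of the 82 genes (70 promoters). The NRF1 motif (GCGCA, any base, then GCGC), searched on both strands, was in 18 of the 70 (25.7%) and in 4.60% of all 32851 promoters. An ETS motif, CCGGAAG, which GABP and related factors bind, was in 17 of the 70 (24.3%) and in 8.86% of all. Of the 14 nuclear genes with an unadjusted p under 0.05 in the comparison below, 13 had a promoter in the table and 3 of these held the NRF1 motif, beside 17 of all 65 genes matched. Those 3 promoters are shown on their own strand with the NRF1 motif in capitals: Cox6a1 (minus strand, chr5:115348909-115349208), Ndufa8 (minus strand, chr2:36049289-36049588) and Ndufs5 (minus strand, chr4:123718137-123718436).
Cox6a1: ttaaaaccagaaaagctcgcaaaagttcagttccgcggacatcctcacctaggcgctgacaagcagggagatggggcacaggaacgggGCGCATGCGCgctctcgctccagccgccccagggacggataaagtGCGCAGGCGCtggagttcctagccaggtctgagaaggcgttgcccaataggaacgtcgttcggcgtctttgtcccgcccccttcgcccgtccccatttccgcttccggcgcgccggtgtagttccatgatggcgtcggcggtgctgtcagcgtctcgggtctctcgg
Ndufa8: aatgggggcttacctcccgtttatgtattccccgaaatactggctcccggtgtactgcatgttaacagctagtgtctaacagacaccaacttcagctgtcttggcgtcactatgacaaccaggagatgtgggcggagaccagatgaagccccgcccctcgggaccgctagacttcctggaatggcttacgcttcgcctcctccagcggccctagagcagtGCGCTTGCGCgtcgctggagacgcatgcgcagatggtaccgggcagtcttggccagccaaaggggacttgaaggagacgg
Ndufs5: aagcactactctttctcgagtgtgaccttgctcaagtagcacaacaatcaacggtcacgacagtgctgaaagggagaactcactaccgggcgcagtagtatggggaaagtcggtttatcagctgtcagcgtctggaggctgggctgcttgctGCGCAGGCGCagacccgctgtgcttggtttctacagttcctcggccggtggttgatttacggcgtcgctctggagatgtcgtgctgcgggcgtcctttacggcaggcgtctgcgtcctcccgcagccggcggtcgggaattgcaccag
The first motif lies 162 bases before the start in Cox6a1, which holds 2, 98 bases before it in Ndufs5 and 30 bases before it in Ndufa8. A match of letters is a description of the window and does not show that the factor binds there.

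Counts on the 13 mitochondrial genes made up 4.68%, 13.96% and 11.8% of each Slit2fl/fl library and 11.1%, 11.6% and 11.5% of each Slit2th library. The group means were 10.2% ± 4.86 and 11.4% ± 0.278 (SD, n = 3 each), so the difference of 1.22 percentage points was smaller than the spread within Slit2fl/fl. Slit2fl/fl replicate 1 alone sat far below the other 5 libraries, and without replicate 1 of both groups the difference was -1.36 points. The 82 nuclear genes made up 2.95%, 2.15% and 2.75% of each Slit2fl/fl library and 2.52%, 1.48% and 1.43% of each Slit2th library. Here the means were 2.62% ± 0.418 and 1.81% ± 0.615 (SD, n = 3 each), and the ranges overlapped through Slit2th replicate 1. Wilson 95% intervals of these shares were at most 0.110 percentage points wide and cover counting error only.

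Within a library, the ratio of mitochondrial to nuclear counts does not depend on how libraries are scaled to each other. It was 1.59, 6.50 and 4.30 for Slit2fl/fl libraries, against 4.39, 7.82 and 8.05 for Slit2th libraries. On the log2 scale the group means were 1.82 ± 1.05 and 2.70 ± 0.49 (SD, n = 3 each), a difference of 0.88 that the spread within Slit2fl/fl exceeded. In each group replicate 1 had the lowest ratio, and without it the difference was 0.59.

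**Figure D1:**
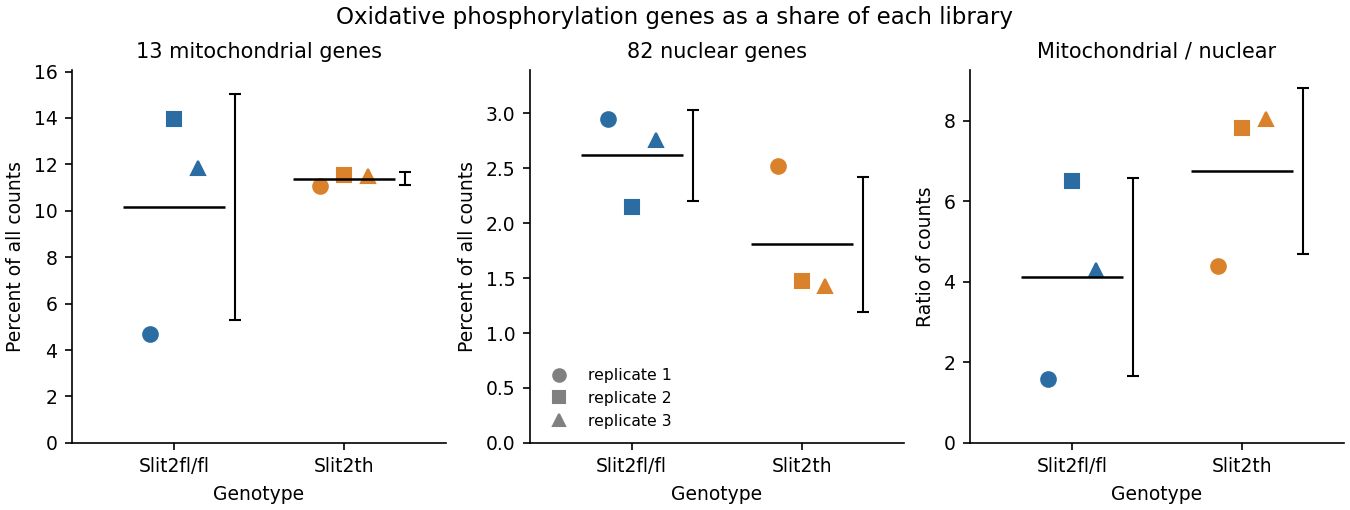
Percent of all counts on the 13 mitochondrial genes (left) and the 82 nuclear genes (centre), and the ratio of the 2 sums (right), in each library; the horizontal line is the group mean and the bar beside it the SD of 3 libraries. Slit2fl/fl replicate 1 has 4.68% of its counts on mitochondrial genes while the other 5 libraries have 11.1% to 13.96%, and Slit2th replicates 2 and 3 have the lowest nuclear shares, 1.48% and 1.43%.

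Per kilobase, mt-Nd1 was the highest of the 8 abundant mitochondrial messages and mt-Nd5 the lowest, both of complex I. mt-Nd1, a core subunit of the membrane arm, had 15197, 37328 and 31774 CPM in Slit2fl/fl cultures and 34884, 27646 and 28558 CPM in Slit2th cultures. Its log2 fold change was 0.11 (SE 0.43), and only Slit2fl/fl replicate 1 stood away from the rest. The other membrane arm subunits mt-Nd2, mt-Nd4 and mt-Nd5 had log2 fold changes of 0.23 (SE 0.50), 0.26 (SE 0.52) and -0.13 (SE 0.40), and mt-Nd6, the 1 message of the set transcribed from the opposite strand, -0.08 (SE 0.43). The mt-Nd6 annotation overlaps mt-Nd5 on the other strand. With the strand setting not given, reads from that strand could be among the mt-Nd6 counts. mt-Cytb, the cytochrome b of complex III, had 5719.7, 17198 and 15515 CPM in Slit2fl/fl cultures and 14539, 14378 and 14167 CPM in Slit2th cultures, with a log2 fold change of 0.16 (SE 0.45). mt-Co1, the catalytic subunit of complex IV, had 6357, 10499 and 12642 CPM in Slit2fl/fl cultures and 9254, 7389 and 7949 CPM in Slit2th cultures, with a log2 fold change of -0.26 (SE 0.38). For each of these messages the groups overlapped.

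mt-Nd3 differed from the other abundant messages in its range. It had 555, 6807 and 3529 CPM in Slit2fl/fl cultures and 8278, 7955 and 9059 CPM in Slit2th cultures. All 3 Slit2th libraries exceeded the 3 Slit2fl/fl libraries, yet the values within Slit2fl/fl lay far apart, and the log2 fold change of 1.22 (SE 0.71) had an adjusted p of 0.529. Of the 5 scarce messages, mt-Nd4l had 21, 24 and 28 counts in Slit2fl/fl cultures and 30, 44 and 54 in Slit2th cultures, a log2 fold change of 1.04 (SE 0.46) with non-overlapping groups and the smallest adjusted p of the 13, 0.463. mt-Atp8 also had non-overlapping groups, at 1, 3 and 3 and 6, 5 and 7 counts, which lie at or near the floor of 3 counts.

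The remaining scarce messages overlapped between the groups. mt-Atp6, the proton channel subunit of complex V, had 4, 22 and 18 counts in Slit2fl/fl cultures and 14, 32 and 32 in Slit2th cultures. mt-Co2 had 6, 9 and 5 and 7, 10 and 5 counts, and mt-Co3 had 9, 13 and 24 and 20, 14 and 13. In the test across all genes, 0 of the 13 mitochondrial genes passed the adjusted threshold of 0.05 and 0 had an unadjusted p under 0.05. Their median log2 fold change was 0.26 (10 positive, 3 negative), beside -0.05 over all genes tested. That sign was not stable: without Slit2fl/fl replicate 1 the median was -0.15, leaving out replicate 1 of both groups gave -0.23, and with offsets corrected for GC content it was -0.03.

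**Figure D2:**
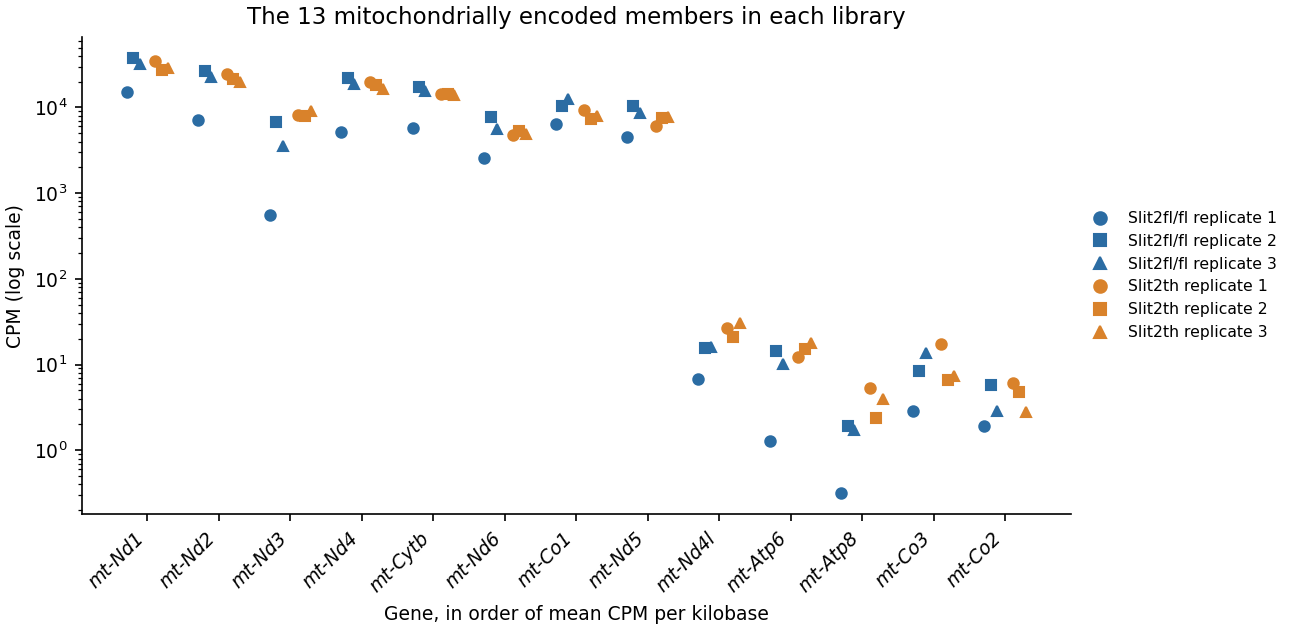
CPM of the 13 mitochondrially encoded genes in each library on a log axis, in order of their mean CPM per kilobase of exon. The lowest value of the 8 abundant messages is 555 CPM (mt-Nd3, Slit2fl/fl replicate 1) and the highest of the 5 scarce ones is 30.4 CPM (mt-Nd4l, Slit2th replicate 3), and Slit2fl/fl replicate 1 is the lowest library for each of the 13 genes.

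Of the 82 nuclear genes, 79 had at least 1 CPM in at least 3 libraries and were tested. The 3 others are tissue-restricted subunits of complex IV: Cox4i2 had 0 counts in every library, while Cox6a2, of heart and skeletal muscle, and Ndufa4l2 had 10 and 7 counts, all in Slit2fl/fl replicate 1. Cox8b, a further muscle subunit, is not among the genes of the table. The highest levels per kilobase were those of Atp5k (subunit e of the ATP synthase) at 1554 CPM and Uqcrb (a small subunit of complex III) at 1286 CPM, and the highest of complexes I, IV and II were those of Ndufa5 at 795, Cox7c at 679 and Sdha at 24.5 CPM. Exons of 31 of the 82 overlap another annotated gene, and 18 have a near-identical copy elsewhere in the annotation, so that some of their reads could have been assigned elsewhere.

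In Slit2th against Slit2fl/fl, the nuclear genes leaned lower. Of the 79 tested, 55 had a negative and 24 a positive log2 fold change, and their median was -0.51, beside -0.05 over all genes tested. By complex, the median was -0.65 for complex I, 0.15 for complex II, -0.51 for complex III, -0.82 for complex IV and -0.46 for complex V. None of the 79 passed the adjusted threshold in edgeR's quasi-likelihood test, and nor did any of all 12152 genes tested (0%). DESeq2 called 1 of them, Ndufa1 (log2 fold change -1.71, adjusted p = 0.0156), among 34 genes in all (0.28%). At an unadjusted p under 0.05, 14 of the 79 were lower in Slit2th, where 6.78% of all genes tested were lower, and 0 were higher, where 3.98% were. Single libraries moved these values: the median of the nuclear genes was -0.03 without Slit2fl/fl replicate 1 and -1.57 without Slit2th replicate 1, and the 14 became 48 without Slit2th replicate 1, 4 without Slit2th replicate 2 and 5 without Slit2th replicate 3.

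**Figure D3:**
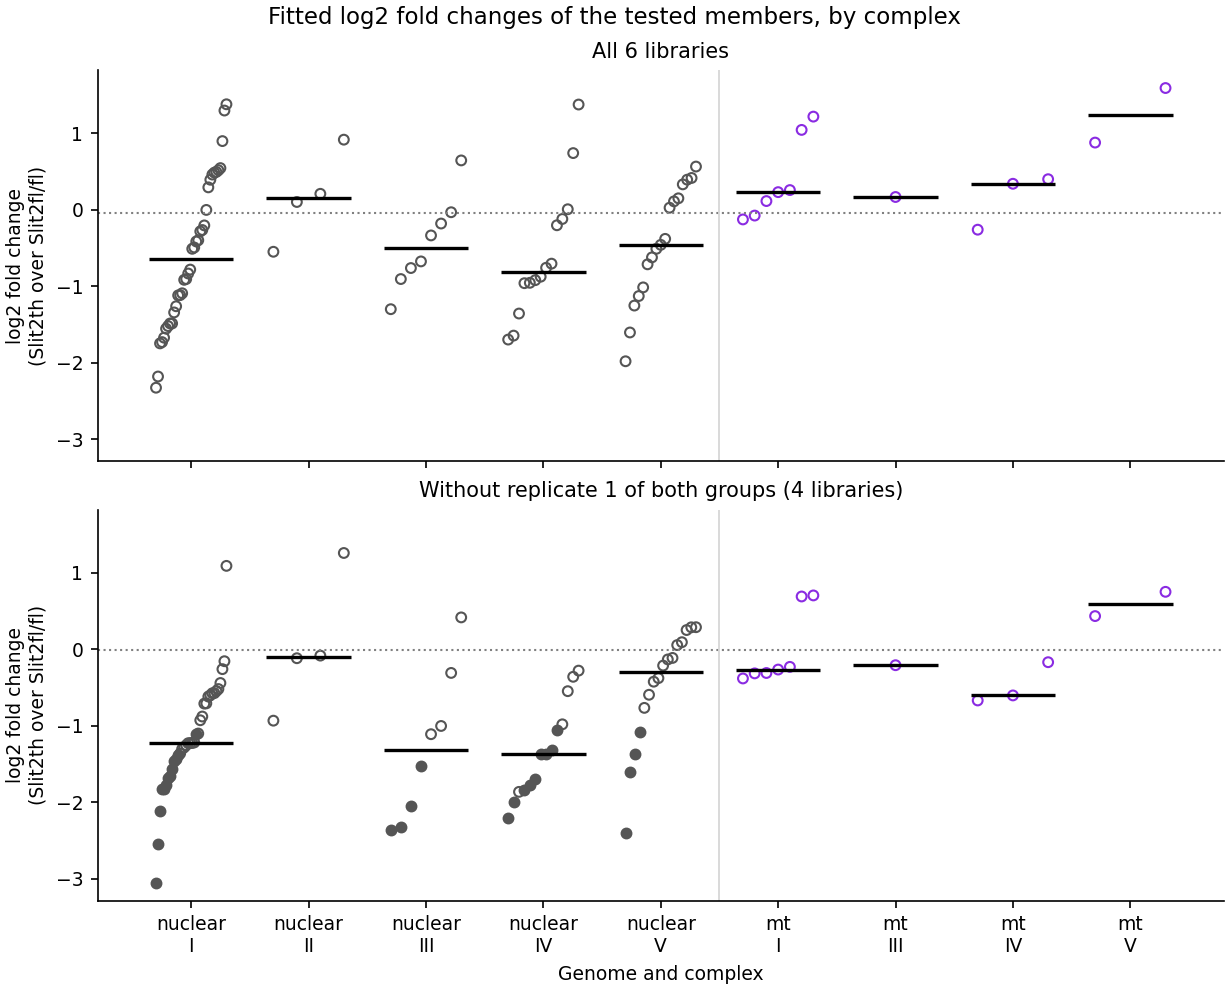
Fitted log2 fold changes of each tested gene by genome and complex, with all 6 libraries (top) and without replicate 1 of both groups (bottom); black lines are medians, the dotted line is the median of all genes tested and filled points have an adjusted p under 0.05. The nuclear medians of complexes I, III and IV move from -0.65, -0.51 and -0.82 to -1.23, -1.32 and -1.38. That of complex V moves the other way, from -0.46 to -0.30, and that of complex II goes from 0.15 to -0.10. The filled points are all nuclear and below 0.

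The 14 lower genes were 8 subunits of complex I, 4 of complex IV and 2 of complex V, with adjusted p-values of 0.423 to 0.460. In 10 of them the 3 Slit2th libraries were the lowest 3 of the 6. No other nuclear gene showed this, so that it held for 10 of the 79 tested (12.7%), near the 9.73% of all genes tested. Ndufa1 (chrX:37187588-37191163 on GRCm38, minus strand), an X-linked accessory subunit needed to assemble complex I, had 131, 142 and 189 CPM in Slit2fl/fl cultures and 41.4, 48.6 and 49.0 CPM in Slit2th cultures. Both groups were tight and well apart, and the log2 fold change was -1.73 (SE 0.33). Cox7a1 (chr7:30184144-30186078, plus strand), known as the heart and muscle form of a small complex IV subunit, had 47.3, 62.8 and 56.7 CPM in Slit2fl/fl cultures and 15.8, 19.0 and 18.0 CPM in Slit2th cultures. Again the 3 libraries of each group lay close together, with a log2 fold change of -1.65 (SE 0.36).

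Accessory subunits of the membrane arm of complex I made up much of the group. Ndufc1 (chr3:51404677-51408988, minus strand) had 1351, 1459 and 2024 CPM in Slit2fl/fl cultures and 738, 521 and 465 CPM in Slit2th cultures, a log2 fold change of -1.49 (SE 0.36). For Ndufb3 the values were 64.2, 53.7 and 108 and 21.1, 32.4 and 26.5 CPM, with a log2 fold change of -1.49 (SE 0.41). Ndufa3, whose exons overlap Tfpt on the other strand, had 238, 316 and 343 and 189, 119 and 106 CPM and a log2 fold change of -1.12 (SE 0.36). In each of these genes the groups did not overlap. Ndufb2, overlapped by Braf on the other strand, had 114, 75.7 and 136 CPM in Slit2fl/fl cultures and 73.9, 49.0 and 50.1 CPM in Slit2th cultures, where the highest Slit2th library came within 2 CPM of the lowest Slit2fl/fl library, and its log2 fold change was -0.92 (SE 0.37).

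Ndufa8 and Ndufs5 are accessory subunits of complex I that face the intermembrane space. Ndufa8 had 82.5, 11.6 and 17.6 CPM in Slit2fl/fl cultures and 10.6, 13.3 and 11.3 CPM in Slit2th cultures, so its log2 fold change of -1.67 (SE 0.71) came mostly from Slit2fl/fl replicate 1. Ndufs5 had 225, 29.8 and 76.6 CPM in Slit2fl/fl cultures and 55.4, 8.10 and 4.51 CPM in Slit2th cultures, the most negative log2 fold change of the nuclear genes at -2.33 (SE 0.99), with groups that overlapped because replicate 1 was the highest library of each.

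Within complex IV, Cox7a2, the widely expressed counterpart of Cox7a1, had 676, 534 and 1054 CPM in Slit2fl/fl cultures and 539, 189 and 157 CPM in Slit2th cultures. Slit2th replicate 1 lay among the Slit2fl/fl libraries, and the log2 fold change was -1.36 (SE 0.53). Cox7b, a small X-linked subunit, had 269, 353 and 544 CPM in Slit2fl/fl cultures and 201, 232 and 202 CPM in Slit2th cultures, without overlap, and a log2 fold change of -0.88 (SE 0.36). Cox6a1 had 921, 126 and 151 CPM in Slit2fl/fl cultures and 152, 111 and 106 CPM in Slit2th cultures, where 1 library, Slit2fl/fl replicate 1, stood far above all others. The log2 fold change of -1.70 (SE 0.72) for Cox6a1 became -0.36 (SE 0.21, adjusted p = 0.402) without replicate 1 of both groups.

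In complex V, Atp5j, the coupling factor of the stalk that holds the synthase together, had 1891, 3309 and 4283 CPM in Slit2fl/fl cultures and 1381, 1578 and 1375 CPM in Slit2th cultures. The groups did not overlap, the log2 fold change was -1.13 (SE 0.38), and its exons overlap Gabpa, which encodes a subunit of GABP, on the other strand. Atp5b, the catalytic beta subunit, had 1505, 262 and 330.2 CPM in Slit2fl/fl cultures and 245, 220.5 and 224 CPM in Slit2th cultures. Its groups did not overlap either, but the log2 fold change of -1.61 (SE 0.63) fell in size to -0.43 (SE 0.19, adjusted p = 0.265) without replicate 1 of both groups.

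**Figure D4:**
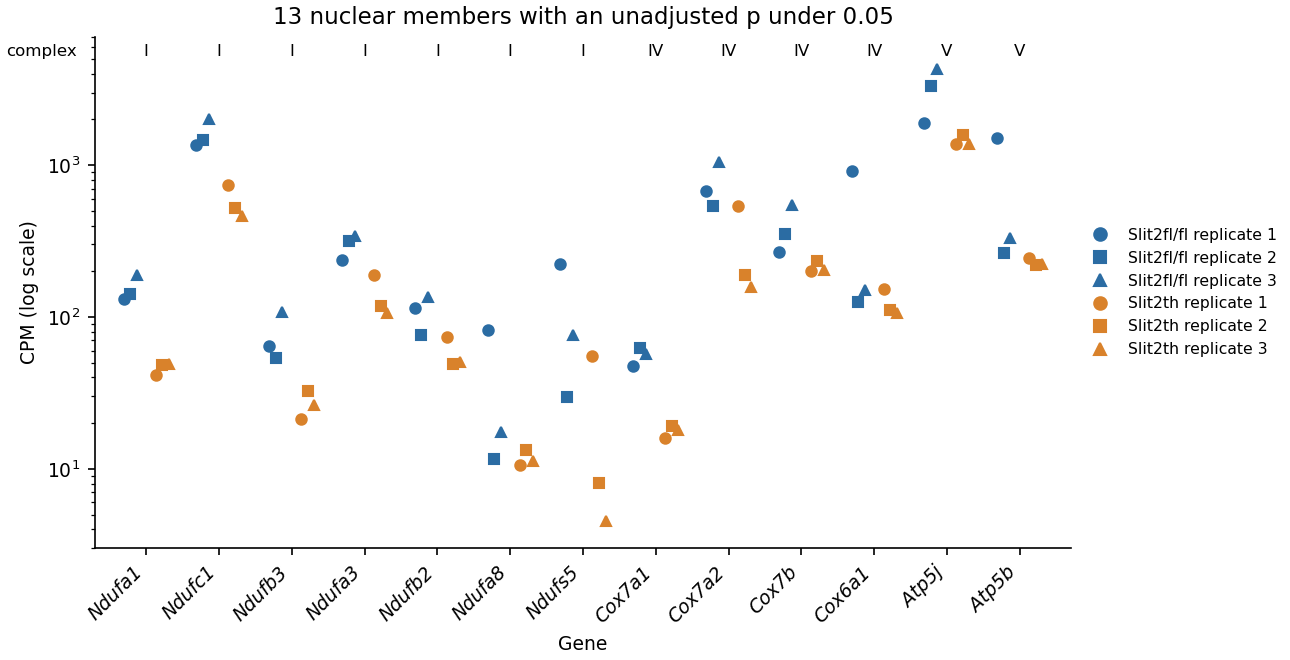
CPM on a log axis of 13 of the 14 nuclear genes with an unadjusted p under 0.05, by library, with the complex of each above. In 9 of the 13 the 3 Slit2th libraries lie below the 3 Slit2fl/fl libraries, while Cox7a2, Ndufa8, Ndufs5 and Cox6a1 overlap, and Slit2fl/fl replicate 1 is set apart upward in Cox6a1, Atp5b and Ndufa8.

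All 3 Slit2th libraries were above all 3 Slit2fl/fl libraries in 2 of the 79 nuclear genes tested. The same held for 3 of the 13 mitochondrial genes, mt-Nd3, mt-Nd4l and mt-Atp8, the last 2 of them scarce. Over all genes tested the share was 8.72%, above the nuclear share and below the mitochondrial one. The 2 nuclear genes were Uqcrfs1, the Rieske iron-sulfur protein of complex III, and Atp5f1, subunit b of the peripheral stalk of complex V. Uqcrfs1 had 52.4, 60.2 and 64.7 against 109, 89.5 and 78.3 CPM, and Atp5f1 had 253, 270.4 and 337 against 381, 355 and 393 CPM. Their log2 fold changes were 0.64 (SE 0.33) and 0.39 (SE 0.31), and neither had an unadjusted p under 0.05. Atp5f1 was chosen after its values were seen.

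The 2 most positive log2 fold changes of the nuclear genes, those of Ndufs6 and Cox6b2, rested on Slit2th replicate 1. Ndufs6, a zinc-binding accessory subunit of complex I, had 278, 45.9 and 134 CPM in Slit2fl/fl cultures and 1125, 37.1 and 33.2 CPM in Slit2th cultures, and Cox6b2, the testis form of a complex IV subunit, had 25.2, 6.47 and 12.5 and 114, 2.38 and 2.82 CPM. In both, Slit2th replicate 1 was the highest of the 6 libraries and Slit2th replicates 2 and 3 were the lowest. Ndufs6 went from a log2 fold change of 1.38 (SE 1.23) to -1.37 (SE 0.38, adjusted p = 0.0718) without replicate 1 of both groups, and Cox6b2 from 1.37 (SE 1.25) to -1.87 (SE 0.65, adjusted p = 0.15). The next, Ndufb1-ps, had 60.1, 369 and 163 CPM in Slit2fl/fl cultures and 307, 546 and 597 CPM in Slit2th cultures, with groups that overlapped. Its log2 fold change was 1.29 (SE 0.60) with all libraries and 1.09 (SE 0.29, adjusted p = 0.0558) without replicate 1 of both groups, and its exons overlap Cpsf2 on the other strand. Ndufb1-ps was chosen after its values were seen.

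Complex II, the only complex without a mitochondrial gene and also an enzyme of the citric acid cycle, had no member with an unadjusted p under 0.05. Sdha, the flavoprotein that oxidizes succinate, had 85.0, 93.8 and 113 CPM in Slit2fl/fl cultures and 121, 91.9 and 101 CPM in Slit2th cultures, with a log2 fold change of 0.10 (SE 0.32). The membrane anchors had opposite signs: Sdhd had 16.6, 18.8 and 10.2 and 15.8, 28.1 and 41.7 CPM, with a log2 fold change of 0.91 (SE 0.47) that was 1.26 (SE 0.39, adjusted p = 0.106) without replicate 1 of both groups, and Sdhc had 117, 64.0 and 53.9 and 48.4, 55.2 and 56.9 CPM, with -0.55 (SE 0.39). All 3 overlapped between the groups.

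The extremes of complexes III and V by level or direction also overlapped. Uqcrq, a small complex III subunit with the most negative log2 fold change there, had 764, 78.3 and 213 CPM in Slit2fl/fl cultures and 372, 27.6 and 31.0 CPM in Slit2th cultures (-1.30 (SE 1.08)). Uqcrb had 222, 1500.2 and 1699 and 739, 1369.5 and 1231 CPM, with a log2 fold change of -0.03 (SE 0.64). Atp5k had 352, 1121 and 846 and 1061, 1062 and 1301 CPM (0.56 (SE 0.44)), and in both Uqcrb and Atp5k Slit2fl/fl replicate 1 was the lowest of the 6 libraries. Atp5g2, 1 of the genes for the c ring of the ATP synthase, had 13.4, 0.647 and 2.84 and 2.64, 1.43 and 0.563 CPM, with 5 of its 6 values near or under the floor of 3 counts.

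The widely expressed members of the isoform pairs were all above the filter on low counts. Cox4i1 had 969, 145 and 209.9 CPM in Slit2fl/fl cultures and 647, 78.1 and 59.7 CPM in Slit2th cultures, Cox8a had 606, 111 and 187 and 405, 81.4 and 70.4 CPM, and Ndufa4 had 700.3, 996 and 1489 and 906, 385 and 345 CPM. Their log2 fold changes were -0.76 (SE 0.98), -0.71 (SE 0.80) and -0.96 (SE 0.47), and none had an unadjusted p under 0.05. For Cox4i1 and Cox8a replicate 1 was again the highest library in both groups.

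Replicate 1 of each group carried more of most nuclear transcripts of the pathway than its partners did. On log2(CPM + 1), the median difference of replicate 1 from the mean of replicates 2 and 3 over the 79 nuclear genes was 0.97 in Slit2fl/fl (1.97-fold) and 1.47 in Slit2th (2.77-fold), beside 0.04 and -0.19 over all genes tested. In 43 of the 79, replicate 1 was above both partners in both groups, which 2255 of the 12152 genes tested showed, and in 12 it was below both partners in both groups, which 2897 showed. The 12 include Ndufa1, Cox7a1, Cox7b, Uqcrb, Cox7c and Atp5k, so genes of the same complex went opposite ways, as with Uqcrq and Uqcrb above. Cox7c had 286, 1177 and 1006 CPM in Slit2fl/fl cultures and 327, 946 and 868 CPM in Slit2th cultures.

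The shift was compared between the groups gene by gene. Across the 79 genes, the shift in Slit2fl/fl and that in Slit2th had a Spearman rho of 0.66, beside 0.24 across all genes tested; genes of a library share its depth and preparation, so this is a description. The shift rose with the GC content of the exons, at rho 0.40 in Slit2fl/fl and 0.26 in Slit2th across the 79 genes, beside 0.54 and 0.14 across all genes tested. The fitted log2 fold change between genotypes had a rho with GC content of -0.09 across the 79 genes and -0.34 across all genes tested. The mitochondrial genes moved otherwise, with a median shift of -1.34 in Slit2fl/fl and 0.18 in Slit2th. Macrophage markers (668 CPM in Slit2th replicate 1, 36.9 to 148 CPM in the 5 other libraries) and neuronal markers (592 CPM in Slit2fl/fl replicate 1, 201 to 217 CPM in the others) were also set apart in replicate 1, and their part in these values was not tested.

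**Figure D5:**
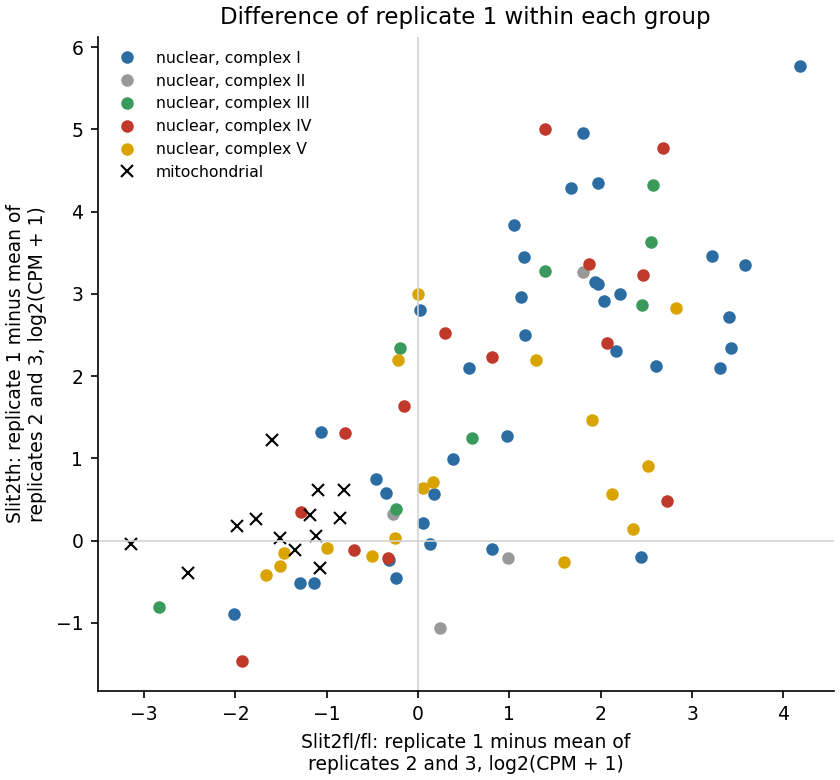
Difference of replicate 1 from the mean of replicates 2 and 3 on log2(CPM + 1), in Slit2fl/fl (x axis) and Slit2th (y axis), for the 79 nuclear genes by complex and the 13 mitochondrial genes. Most nuclear genes lie above 0 on both axes (medians 0.97 and 1.47), while all mitochondrial genes lie below 0 on the x axis.

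Without replicate 1 of both groups, which leaves 2 libraries against 2, the lower levels in Slit2th passed the adjusted threshold for many nuclear genes. Of 78 tested, 30 were called lower, where 2.53% of all 11473 genes tested were, and 0 were called higher, where 0.767% were. Leaving out the other numbers gave no calls: without replicate 2 of both groups, or without replicate 3 of both groups, 0 members were called, as without any single library, and 7 and 4 nuclear genes were lower at an unadjusted p under 0.05, against 52 without replicate 1. The 30 were 13 of 36 genes of complex I, 4 of 8 of complex III, 9 of 14 of complex IV and 4 of 16 of complex V, with 0 of 4 in complex II and 0 of the 13 mitochondrial genes. The median log2 fold change of the 78 was -1.09 (70 negative, 8 positive), beside -0.02 over all genes tested. Of the 14 genes described above, 10 were among the 30, but both lists rest on shared libraries, so the overlap is not independent support. Exons of 10 of the 30 overlap another gene, and 7 have a near-identical copy.

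The called genes covered log2 fold changes of -1.06 to -3.06. The steepest was Ndufs5 at -3.06 (SE 0.48, adjusted p = 0.00299), and the complex III subunit Uqcrq stood at -2.33 (SE 0.37, adjusted p = 0.00371). Cox7a2 had -2.21 (SE 0.27, adjusted p = 0.000508), Ndufa4 -1.78 (SE 0.20, adjusted p = 0.000371), and Cox4i1 -1.37 (SE 0.24, adjusted p = 0.00695). Ndufa5, an accessory subunit of the arm of complex I that binds NADH and among the most abundant of its messages, had 551, 966 and 1379 CPM in Slit2fl/fl cultures and 1128, 429 and 474 CPM in Slit2th cultures, and passed at -1.39 (SE 0.20, adjusted p = 0.00128). Ndufa1 (-1.78 (SE 0.23, adjusted p = 0.000751)), Ndufc1 (-1.83 (SE 0.19, adjusted p = 0.000226)) and Atp5j (-1.37 (SE 0.18, adjusted p = 0.000751)), which separated the groups in all 6 libraries, passed as well. Values of Sdha (-0.12 (SE 0.22, adjusted p = 0.841)), Uqcrb (-0.31 (SE 0.17, adjusted p = 0.359)) and Atp5k (0.25 (SE 0.19, adjusted p = 0.55)) did not.

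Electron carriers and related pathways were set beside the subunits. Cycs, the cytochrome c that carries electrons from complex III to complex IV, had 662, 747 and 1275 CPM in Slit2fl/fl cultures and 391.6, 192 and 199 CPM in Slit2th cultures. The groups did not overlap, and the log2 fold change of -1.78 (SE 0.43) had an adjusted p of 0.423, against -2.38 (SE 0.23, adjusted p = 0.000162) without replicate 1 of both groups. Cyc1, the cytochrome c1 of complex III, had 35.8, 20.7 and 14.2 and 96.8, 13.3 and 13.5 CPM and a log2 fold change of 0.77 (SE 0.78).

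Of 47 tested assembly factors, which build the complexes without staying in them, 5 were lower and 3 higher at an unadjusted p under 0.05. Over all genes tested, 6.78% were lower and 3.98% higher at that p. The median log2 fold change of the 47 was -0.28, beside -0.05 over all genes tested. Those lower included Ndufaf2 of complex I (-1.82 (SE 0.55)), Bcs1l, which inserts the Rieske protein into complex III (-1.77 (SE 0.66)), and Fmc1 of complex V (-3.06 (SE 0.91)). Nubpl of complex I (1.50 (SE 0.65)), Lyrm7 of complex III (1.84 (SE 0.76)) and Cox15, a heme a synthesis enzyme (1.40 (SE 0.62)), were the 3 higher. Without replicate 1 of both groups 1 of the 47 was called lower and 0 higher, where 2.53% and 0.767% of all genes tested were.

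Factors that express the mitochondrial genome showed no common direction: of 19 tested, 2 were lower and 3 higher at an unadjusted p under 0.05. Their median was -0.09. The shares over all genes tested were 6.78% lower and 3.98% higher. Tfam, which packages mitochondrial DNA and activates its transcription, had 25.6, 32.3 and 21.6 CPM in Slit2fl/fl cultures and 7.04, 17.6 and 13.5 CPM in Slit2th cultures, a log2 fold change of -1.03 (SE 0.45). Its groups did not overlap, and 9.73% of all genes tested were likewise lowest in the 3 Slit2th libraries. Lrpprc, which stabilizes mitochondrial messages, had 51.5, 90.6 and 95.9 and 115, 71.4 and 94.1 CPM (0.24 (SE 0.38)). Elac2 (-3.96 (SE 1.43)), which trims mitochondrial transfer RNAs, was driven by 86.3, 1.29 and 2.84 CPM in Slit2fl/fl, while Mterf1b (3.71 (SE 1.25)) and Polrmt, the mitochondrial RNA polymerase (-0.59 (SE 1.13)), lay near the floor. Of 6 regulators of mitochondrial biogenesis tested, 0 had an unadjusted p under 0.05, among them Ppargc1a (PGC-1alpha) with a log2 fold change of 0.16 (SE 0.58).

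In the pathways that feed or bypass the chain, the citric acid cycle had 1 of 13 genes lower and 1 higher at an unadjusted p under 0.05 (Idh3b -1.73 (SE 0.70), Sucla2 1.48 (SE 0.60)), with a median log2 fold change of 0.10. At the same p, 6.78% of all genes tested were lower and 3.98% higher. Glycolysis had 2 of 16 lower and 0 higher, with a median of -0.44. The 2 were Eno1 (-2.38 (SE 0.86)), known to have many processed copies in the genome, and Pkm (-0.81 (SE 0.34)). Without replicate 1 of both groups, 0 of 13 genes of the cycle and 1 of 16 of glycolysis were called. That 1 was lower, as were 2.53% of all genes tested.

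Markers of the cell types that the cultures could hold were measured in the same libraries. Macrophage markers had 10 of 11 tested genes positive and summed to 128, 69.9 and 36.9 CPM in Slit2fl/fl cultures and 668, 128 and 148 CPM in Slit2th cultures, with Lyz2 at 2.15 (SE 0.62) and Aif1 at 2, 0 and 0 against 206, 0 and 1 counts. Glial markers summed to 5934, 11024 and 11910 CPM in Slit2fl/fl cultures and 20263, 13556 and 15727 CPM in Slit2th cultures, without overlap. Of the 16 tested, 7 were positive and 9 negative. Among them, S100b had 1231, 1916 and 2572 CPM in Slit2fl/fl cultures and 1853, 960.5 and 980.2 CPM in Slit2th cultures, with groups that overlapped. Fibroblast Col1a2 and Dcn had log2 fold changes of 0.42 (SE 0.34) and 0.63 (SE 0.38), and 8 of the 9 tested fibroblast markers were positive. Of 12 proliferation markers 11 were negative, with Mki67 at -1.12 (SE 0.45) and Top2a at -0.65 (SE 0.36), and neuronal Tubb3 and Uchl1 stood at -0.70 (SE 0.50) and -1.07 (SE 0.66). The part of cell composition in the levels of the pathway was not tested.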

How the data were processed

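Total RNA of 6 sympathetic cultures was sequenced. The authors aligned TruSeq reads to mm10 with HISAT2 (the submitters' processing notes name GRCm39) and deposited whole-number counts per gene, not normalized. The counting program, strand setting and annotation release are not given in the sources used here, so antisense and overlapping genes cannot be told apart. Of 20173 identifiers, 20166 were found in GENCODE M21 (GRCm38). They were compared with edgeR 4.0.16 in R 4.3.3 (TMM, at least 1 CPM in at least 3 libraries, quasi-likelihood test without covariates, Benjamini-Hochberg over all 12152 genes tested, threshold 0.05) and, as an alternative, DESeq2 1.42.0. The biological coefficient of variation was 50.4%. Near-identical copies were found with BLAST 2.17.0 (at least 97% identity over at least 50 bases). Slit2 was given as CPM ± SD. Other single genes were given as the values of each library, as a log2 fold change with its SE, or as both. Genes named were the mt- genes, nuclear genes past a threshold or with an unadjusted p under 0.05, the extremes of each complex, isoform pairs, at most 2 genes of each list, and Slit2, and some are not reported here. Members and lists were chosen with earlier results of these data known. Alternatives were other scalings, filters and tests, GC and length corrections, a replicate block and libraries left out.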

Additional observations from a re-analysis of the deposited data

How the results depend on the processing

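Libraries held 1255939 to 3155406 counts and the spread was wide, so genes near 3 counts (mt-Co2, mt-Atp8, Atp5g2, Polrmt, Mterf1b) carry little information, and 2 libraries against 2, without replicate 1, assume that each pair shows the true spread. The nuclear median log2 fold change stayed negative in every setting, from -1.57 (without Slit2th replicate 1) to -0.03 (without Slit2fl/fl replicate 1); leaving out genes with an overlap, and Ndufb1-ps, gave -0.50, and those with a copy too -0.53. The mitochondrial median ran from -0.23 to 0.59 over left-out libraries. No mitochondrial rRNA or tRNA gene is in the table, so counting them was not run. Causes of the changes below were not tested.

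Same-numbered libraries had correlations of their deviations of 0.292, 0.245 and 0.0808, all positive, and differently numbered ones of -0.312 to 0.255. The main test did not take the numbers as pairs, and these values do not settle whether they are. With the replicate block, 28 nuclear genes were lower and 1 higher at an unadjusted p under 0.05, 2 mitochondrial genes had one, the nuclear median was -0.79, and 0 genes passed the adjusted threshold. Not every library correlated best with its own number, since Slit2fl/fl replicate 2 and Slit2th replicate 3 reached 0.255. The log2 fold change changed sign under the block for Cox6b2 (-0.067), Ndufs6 (-0.084), Polrmt (0.30), Uqcrb (0.35) and mt-Nd6 (0.055).

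Members past the adjusted threshold numbered 1 with DESeq2 and 0 to 30 over left-out libraries. Without replicate 1 of both groups, together with GC or length correction, no TMM, DESeq2 size factors or the DESeq2 test (5 fits added after seeing the data), they numbered 28, 25, 29, 31 and 29. All genes past it numbered 7 without a filter, 34 with DESeq2, 0 to 378 over left-out libraries and 294, 334, 376, 376 and 350 in the added fits, and the mitochondrial median was -0.43 in the first of these. Nuclear genes lower at an unadjusted p under 0.05 numbered 9 with length correction, 4 (without Slit2th replicate 2) to 52 (without replicate 1 of both groups) over left-out libraries and 45, 43, 48, 51 and 41 in the added fits. Nuclear genes higher numbered 1 without a filter, 1 with DESeq2, 2 with length and 2 with GC correction, 1 and 4 with the block and GC or length correction, 0 to 2 over left-out libraries and 3, 4, 3, 2 and 2 in the added fits. Mitochondrial genes with an unadjusted p under 0.05 numbered 1 with DESeq2 size factors, with totals without mt- genes, with 1 CPM in all libraries, and with length or GC correction, 2 without a filter, 3 with the block and length correction, 0 to 2 over left-out libraries and 7, 3, 2, 2 and 2 in the added fits. Slit2 passed the adjusted threshold without replicate 1 of both groups, with log2 fold changes of -1.91 to -1.58 over left-out libraries.

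Signs also turned with length correction for Cox7c (0.042), Uqcrb (0.20), mt-Nd5 (0.065) and mt-Nd6 (0.13). They turned with GC correction for Polrmt (0.31), Ppargc1a (-0.016), Atp5f1 (-0.065), mt-Cytb (-0.053), mt-Nd1 (-0.18), mt-Nd2 (-0.066) and mt-Nd4 (-0.027). With the block and length correction they turned for Cox7c (0.23), Polrmt (0.40), Uqcrb (0.71), mt-Co1 (0.070), mt-Nd5 (0.21) and mt-Nd6 (0.41). With the block and GC correction they turned for Ndufs6 (-0.0079), Polrmt (0.89), Ppargc1a (-0.073), Uqcrb (0.076), Atp5f1 (-0.029), mt-Cytb (-0.027), mt-Nd1 (-0.20) and mt-Nd2 (-0.057). Over left-out libraries, the log2 fold change crossed 0 for Cox6b2 (-2.50 to 2.05), Cox7c (-0.62 to 0.15), Ndufs6 (-2.11 to 2.18), Polrmt (-1.12 to 2.30), Ppargc1a (-0.30 to 0.54), Uqcrb (-0.52 to 0.37), mt-Cytb (-0.21 to 0.45), mt-Nd1 (-0.31 to 0.42), mt-Nd2 (-0.27 to 0.59), mt-Nd4 (-0.23 to 0.62), mt-Nd5 (-0.41 to 0.14), mt-Nd6 (-0.41 to 0.32), mt-Co2 (-0.17 to 0.95), mt-Co3 (-0.67 to 1.12), Cox4i1 (-2.68 to 0.58), Cox8a (-1.99 to 0.33), Cyc1 (-0.82 to 1.23), Elac2 (-5.07 to 0.12), Lrpprc (-0.19 to 0.49), Ndufa5 (-1.39 to 0.039), Sdha (-0.12 to 0.25), Tubb3 (-1.13 to 0.24), Uchl1 (-1.48 to 0.11) and Uqcrq (-3.58 to 0.0028).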
